A study of Homo sapiens with 12 samples.

Results

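The nuclear genes that encode subunits of complexes I to IV of the mitochondrial respiratory chain were followed in 2 human diffuse large B-cell lymphoma lines after siRNA against BCL6. Members were taken by symbol: NDUFA, NDUFB, NDUFC, NDUFS or NDUFV followed by digits only, UQCR, COX4 to COX8, and the SDH subunits. On the Affymetrix U133 Plus 2.0 array 64 symbols matched, and 59 of them had a probe set that names 1 gene, of 19775 such genes in all. Complex I gave 32 members, complex II 3, complex III 6 and complex IV 18. NDUFC2, NDUFS5, NDUFS8, UQCRH and UQCRHL shared their probe sets with another symbol and were not used. Of the 59 members, 52 were bright enough to be tested, and the 7 that were not are all of complex IV.

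The groups were Pfeiffer cells with an siRNA against BCL6, Pfeiffer cells with a non-target control, OCI-Ly7 cells with the BCL6 siRNA and OCI-Ly7 cells with the non-target control, with 3 arrays each and total RNA taken 48 h after transient transfection. Both lines were grown in the same medium. Pfeiffer controls are titled as shRNA but described as siRNA. The targeted gene BCL6 encodes a repressor of transcription that germinal centre B cells depend on, and the comparisons ask what changed when it was reduced. Whether the 3 arrays of each group stem from separate cultures is not stated, so p-values measure the spread between these samples only. Each line is a single line, so a difference between lines is one between these lines.

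The respiratory chain carries electrons from NADH through complex I, or from succinate through complex II, by way of ubiquinone to complex III, then through cytochrome c to complex IV, where oxygen is reduced. Complexes I, III and IV pump protons, and ATP synthase, complex V, uses the gradient. Apart from complex II, which is encoded in the nucleus alone, the complexes combine subunits from nuclear and mitochondrial genes. The transcription factor NRF1, ETS factors such as GABP, and YY1 are known for binding the promoters of many of the nuclear genes. Lymphomas are known to differ in how far they rely on oxidative phosphorylation, and Pfeiffer has served as an example of a line that does.

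Promoter sequences show how these genes differ in the motifs they hold. RefSeq promoters (GRCh38.p14, 250 bases before and 50 from the start) were matched for 47 of the 52 tested members. COX5B is shown as a complex IV subunit whose change differed between the lines and as 1 of 2 members whose promoter holds the BCL6 core. NDUFS6 and NDUFA3 are shown as members far brighter in Pfeiffer controls than in OCI-Ly7 controls. SDHA is shown as the member that rose most in Pfeiffer. Capitals mark matches to the NRF1 core GCATGCGC, the ETS core CCGGAAG, the YY1 core AAGATGGC or the BCL6 core TTCCNNGAA on either strand. COX5B lies at chr2:97645812-97646111, NDUFS6 at chr5:1801157-1801456, NDUFA3 at chr19:54102605-54102904 and SDHA at chr5:218070-218369, each on the + strand.
COX5B: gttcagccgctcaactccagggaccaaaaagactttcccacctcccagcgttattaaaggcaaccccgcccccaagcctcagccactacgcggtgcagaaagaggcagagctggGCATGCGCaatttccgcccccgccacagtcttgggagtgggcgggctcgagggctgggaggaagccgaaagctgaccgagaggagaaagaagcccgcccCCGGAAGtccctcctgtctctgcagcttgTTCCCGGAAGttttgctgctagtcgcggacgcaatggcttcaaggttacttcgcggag
NDUFS6: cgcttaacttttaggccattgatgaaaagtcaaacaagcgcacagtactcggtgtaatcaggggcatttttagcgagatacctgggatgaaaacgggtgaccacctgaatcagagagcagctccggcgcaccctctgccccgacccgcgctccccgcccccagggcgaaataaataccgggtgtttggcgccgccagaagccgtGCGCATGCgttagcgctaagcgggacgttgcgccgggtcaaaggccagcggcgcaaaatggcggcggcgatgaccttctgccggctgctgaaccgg
NDUFA3: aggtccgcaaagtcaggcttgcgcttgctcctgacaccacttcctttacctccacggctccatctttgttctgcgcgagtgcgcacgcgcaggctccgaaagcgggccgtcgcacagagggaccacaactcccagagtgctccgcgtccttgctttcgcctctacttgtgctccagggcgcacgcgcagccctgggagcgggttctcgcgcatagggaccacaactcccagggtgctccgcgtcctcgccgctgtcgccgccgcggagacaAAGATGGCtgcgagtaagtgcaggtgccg
SDHA: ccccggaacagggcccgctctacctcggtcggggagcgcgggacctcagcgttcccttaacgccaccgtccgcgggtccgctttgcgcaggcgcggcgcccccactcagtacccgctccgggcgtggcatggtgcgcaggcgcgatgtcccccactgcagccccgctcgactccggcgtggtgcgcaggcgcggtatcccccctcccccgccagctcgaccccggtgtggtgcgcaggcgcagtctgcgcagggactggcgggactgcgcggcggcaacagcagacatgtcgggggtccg
The COX5B promoter held 1 NRF1 core, 2 ETS cores and 1 BCL6 core, which overlaps the second ETS core. NDUFS6 held 1 NRF1 core, NDUFA3 1 YY1 core just after its start, and SDHA none of the 4.
Among the 47 members the NRF1 core was found in 9 (19.1%), against 3.7% of 27305 genes. In this paragraph all genes means these 27305, every gene with a listed promoter, whether tested on the array or not. The ETS core was found in 13 members (27.7%), against 12.2% of all genes, and the YY1 core in 8 (17.0%), against 3.5%. At least 1 of these 3 stood in 25 members (53.2%), against 17.6% of all genes. The BCL6 core stood in 2 members, COX5B and COX8A (4.3%), against 5.5% of all genes. Whether other bright genes hold these cores as often as the members was not tested. A match is a description of letters in this window and not a binding site.

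Levels below are log2(signal + 16) of MAS5 signals that the authors had scaled to 1 level per array, so each is relative to the other transcripts of its array. In such bulk samples fewer cells of a type and less RNA per cell cannot be told apart. Median signals were 71.3 to 85.0 per array, no 2 arrays held identical values, and arrays of a group correlated at 0.916 to 0.924 over all probe sets. The number of arrays limits the precision. Pfeiffer BCL6 siRNA replicate 3 stood apart in RNA quality, judged by control probe sets at the ends of a transcript. Its 3' minus 5' log2 difference was -0.03 for GAPDH, where the remaining Pfeiffer arrays had -0.13 to -0.09, and 0.39 for ACTB, where they had 0.28 to 0.31. The OCI-Ly7 arrays had 0.11 to 0.20 for ACTB, below every Pfeiffer array. For GAPDH they had -0.15 to -0.11, and the lines overlapped. Whether this bears on the comparison of the lines was not tested. BCL6 itself was at 13.11, 13.04 and 12.75 in Pfeiffer siRNA arrays, against 13.86, 13.92 and 14.01 in controls, and fell by 0.96 ± 0.08 on the log2 scale (SE, limma, adjusted p = 5.31e-07). In OCI-Ly7 it was at 13.13, 13.10 and 13.15 in siRNA arrays, against 13.50, 13.57 and 13.59 in controls, and fell by 0.42 ± 0.08 (adjusted p = 0.00731).

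Of the B cell markers 7 were bright enough to be tested, among them MS4A1 with mean signals of 19352 in Pfeiffer siRNA cells and 25382 in Pfeiffer controls, and 25837 in OCI-Ly7 siRNA cells and 23064 in OCI-Ly7 controls. The T cell genes CD3D, CD3E and CD3G were too dim to be tested, but CD8A had mean signals of 14333 and 12164 in Pfeiffer siRNA and control cells, against 6.6 and 9.6 in OCI-Ly7 siRNA and control cells. COL1A1 was the one fibroblast marker tested, and all NK cell, myeloid and erythroid markers were too dim. Of the 7 B cell markers 5 fell in Pfeiffer and 0 rose at an adjusted p under 0.05 by limma, with a median of -0.42. In OCI-Ly7 2 rose and 0 fell, with a median of 0.17. Of all 9888 genes tested 8.31% fell and 7.9% rose in Pfeiffer, and 0.991% fell and 1.69% rose in OCI-Ly7. Between the controls 3 markers were higher and 4 lower in Pfeiffer, with a median of -2.26, beside 42.5% and 37.1% of all genes. The part of these markers in the results below was not tested.

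After BCL6 siRNA the respiratory chain transcripts of Pfeiffer changed little: the median over the 52 tested members was -0.04, against 0.00 over all 9888 genes, and the changes lay between -0.26 and 0.31. By limma with Benjamini-Hochberg adjustment over all 9888 genes, 3 members rose (SDHA, NDUFS1 and NDUFS6) and 3 fell (COX7A2L, NDUFA12 and NDUFB5). These counts are 5.8% of members in each direction, beside 7.9% of all genes called higher and 8.31% called lower. Among the brightest 4944 genes, which include all 52 members, 11.7% were called higher and 12.3% lower. Every one of the 52 intervals of 95% lay within a 1.5-fold change in either direction. Values were above 0 for 22 members and below 0 for 30, beside 4948 and 4940 of all genes. The complexes differed little in their medians, at -0.05 for complex I, 0.02 for complex II, -0.01 for complex III and 0.01 for complex IV.

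In complex II, SDHA, the flavoprotein that oxidises succinate, was at 12.20, 12.26 and 12.51 in Pfeiffer siRNA arrays, against 11.98, 11.996 and 12.07 in controls. The groups did not overlap, and SDHA rose by 0.31 ± 0.07 (SE, adjusted p = 0.00871), a ratio of 1.24. The highest siRNA array was replicate 3, the one that stood apart in RNA quality, and without it the change was still called. SDHA is read by a single probe set of the kind that can match other transcripts, and it has near-identical pseudogene copies, so its value is uncertain. The membrane anchors of the complex did not follow it. SDHD was at 12.85, 12.83 and 12.58 in siRNA arrays, against 12.96, 13.01 and 13.01 in controls, with a change of -0.24 ± 0.08 that just missed the threshold (adjusted p = 0.0563). SDHC was at 12.06, 11.98 and 12.10, against 12.02, 12.003 and 12.06 in controls (change 0.02 ± 0.07, adjusted p = 0.907), with both groups overlapping. SDHB is not analysed here.

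Complex I had 2 called rises and 2 called falls among its 32 members. NDUFS1, the largest iron-sulphur subunit of the NADH-oxidising arm, was at 11.79, 11.85 and 11.82 in siRNA arrays, against 11.59, 11.68 and 11.69 in controls (0.17 ± 0.05, adjusted p = 0.0456). NDUFS6, a zinc-binding accessory subunit of the same arm, was at 13.74, 13.69 and 13.70, against 13.54, 13.53 and 13.54 in controls (0.17 ± 0.05, adjusted p = 0.0452). All siRNA arrays lay above all controls for both. Falls of similar size were seen in NDUFA12, an accessory subunit of the peripheral arm, and NDUFB5, of the membrane arm. NDUFA12 was at 13.53, 13.48 and 13.48 in siRNA arrays, against 13.61, 13.67 and 13.74 in controls (-0.18 ± 0.05, adjusted p = 0.0247). NDUFB5 was at 14.29, 14.31 and 14.26, against 14.44, 14.44 and 14.40 in controls (-0.14 ± 0.04, adjusted p = 0.0355). All siRNA arrays lay below all controls for both. The other 28 members, between -0.21 and 0.19, were not called.

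In complex IV the one called change was a fall of COX7A2L, a COX7A-related protein known for joining complexes III and IV into supercomplexes. It was at 12.69, 12.50 and 12.53 in siRNA arrays, against 12.79, 12.80 and 12.90 in controls, and fell by 0.26 ± 0.07 (adjusted p = 0.0155). Its relative COX7A2, the COX7A form of most tissues, was at 14.20, 14.18 and 13.99, against 14.28, 14.26 and 14.37 in controls (-0.18 ± 0.07, adjusted p = 0.0842). COX5B, a small zinc-binding subunit, was at 13.79, 13.82 and 13.79, against 13.93, 13.90 and 13.96 in controls, with a change of -0.13 ± 0.04 that just missed the threshold (adjusted p = 0.0503). In all 3 genes every siRNA array lay below every control. The remaining 8 tested members of the complex lay between -0.04 and 0.09.

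None of the 6 complex III members was called in Pfeiffer, where 2 had an unadjusted p under 0.05 with a positive change and 1 with a negative one. Of all 9888 genes 1407 and 1472 did so. UQCRQ, a small subunit of the complex, was at 14.44, 14.36 and 14.47 in siRNA arrays, against 14.25, 14.22 and 14.35 in controls (0.15 ± 0.05, adjusted p = 0.0786). UQCR11 was at 13.95, 13.84 and 13.76, against 13.66, 13.71 and 13.72 in controls (0.16 ± 0.07, adjusted p = 0.156). Both were above their controls on every array without passing the test. Over all 52 members, the groups of arrays were fully separate for 18 (6 with the siRNA arrays above and 12 below), or 34.6%, beside 33.0% of all genes. The share of all genes holds both directions, which were not counted apart.

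Most of the Pfeiffer calls lay close to the threshold, so that leaving out an array ended them with little change in size. SDHA kept its call when any 1 of the 12 arrays was left out, whereas COX7A2L lost it without siRNA replicate 2 (adjusted p = 0.0631) or control replicate 3 (adjusted p = 0.0677), NDUFA12 without siRNA replicate 2 or 3 or control replicate 2 or 3 (adjusted p = 0.0529 to 0.103), and NDUFB5, NDUFS1 and NDUFS6 when whichever single Pfeiffer array was left out (adjusted p = 0.0557 to 0.17). NDUFS1 lost its call in 11 of all 12 such fits and NDUFS6 in 9, OCI-Ly7 arrays included. With 1 array left out the changes stayed between 0.14 and 0.19 for NDUFS1, between 0.15 and 0.18 for NDUFS6 and between -0.15 and -0.13 for NDUFB5. The 6 calls became 1 without siRNA replicate 2, 2 without replicate 3 of the siRNA arrays or replicate 2 or 3 of the controls, 3 without replicate 1 of the controls, and with quantile normalization 3 higher and 7 lower.

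**Figure D1:**
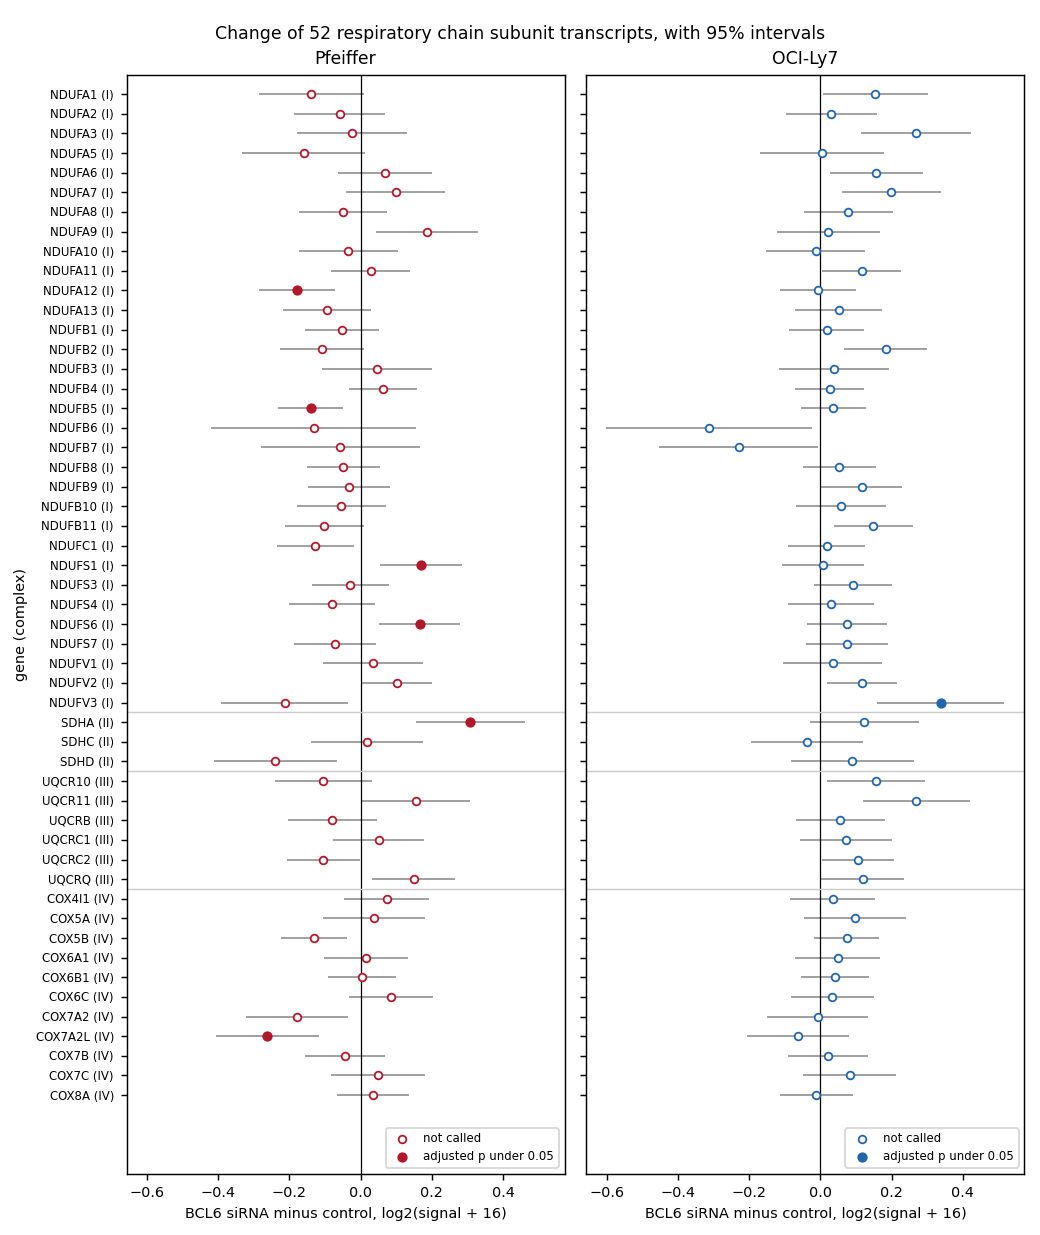
Change after BCL6 siRNA of each of the 52 tested members, in Pfeiffer (left) and OCI-Ly7 (right), as BCL6 siRNA minus control on the log2(signal + 16) scale. Points are limma's estimates, lines their 95% intervals, filled points adjusted p under 0.05, and rows are grouped by complex. The Pfeiffer points lie between -0.26 and 0.31 on both sides of 0, and in OCI-Ly7 44 of 52 lie above 0.

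In OCI-Ly7 the members lay slightly above their controls as a group: 44 of 52 had a value above 0 (84.6%, beside 54.0% of all genes), with a median of 0.05, against 0.01 over all genes. Among the brightest 4944 genes 58.4% were above 0, with a median of 0.02. Only 1 member passed the test, NDUFV3, which rose, and 0 fell. That is 1.9% of members, beside 1.69% of all genes called higher and 0.991% called lower. Of the brightest 4944 genes 2.6% were called higher and 1.5% lower. At an unadjusted p under 0.05, 14 of 52 members were higher and 2 lower, beside 937 and 595 of all 9888 genes. Of the brightest 4944 genes 654 were higher and 342 lower at that level. The 2 lower members were NDUFB6 (-0.31 ± 0.13, adjusted p = 0.277) and NDUFB7 (-0.23 ± 0.10, adjusted p = 0.308), membrane arm subunits of complex I. Of the 52 intervals, 51 lay within a 1.5-fold change in either direction, NDUFB6 being the exception. All 6 complex III members were above 0, with a median of 0.11, and the medians of complexes I, II and IV were 0.05, 0.09 and 0.03. With quantile normalization the median over members was 0.01, close to the 0.01 of all genes, so the shift of the group depended on the scaling.

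NDUFV3, an accessory subunit of the NADH-oxidising arm of complex I, was at 10.11, 10.08 and 10.21 in OCI-Ly7 siRNA arrays, against 9.73, 9.91 and 9.74 in controls. Every siRNA array lay above every control, and the gene rose by 0.34 ± 0.08 (SE, adjusted p = 0.0456), a ratio of 1.26. A second, dimmer probe set of NDUFV3 gave -0.21 for the same comparison and was not called (adjusted p = 0.718), so the probe sets disagree. The call was lost without OCI-Ly7 siRNA replicate 1, 2 or 3, OCI-Ly7 control replicate 1 or 3, Pfeiffer siRNA replicate 1 or 2 or Pfeiffer control replicate 1 (adjusted p = 0.0562 to 0.158), and 3 members rather than 1 were called without OCI-Ly7 control replicate 2 or Pfeiffer siRNA replicate 3. NDUFA3, an accessory subunit of the membrane arm, was at 11.75, 11.63 and 11.62 in siRNA arrays, against 11.46, 11.32 and 11.42 in controls (0.27 ± 0.07, adjusted p = 0.0643). It too had all siRNA arrays above all controls, but its adjusted p was above the threshold.

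In complex III, UQCR11 was at 13.42, 13.35 and 13.52 in OCI-Ly7 siRNA arrays, against 13.00, 13.27 and 13.22 in controls (0.27 ± 0.07, adjusted p = 0.0588). UQCR10, another small subunit, was at 13.997, 14.01 and 14.17, against 13.84, 13.86 and 14.01 in controls (0.16 ± 0.06, adjusted p = 0.256). For UQCR11 the arrays separated completely, and for UQCR10 they overlapped, with 1 siRNA array below the highest control. A second, dimmer probe set of UQCR11 gave -0.36 in OCI-Ly7 (adjusted p = 0.438) and -0.23 in Pfeiffer (adjusted p = 0.474), opposite in sign to the first in both lines. The values of the core proteins were smaller, 0.07 for UQCRC1 and 0.11 for UQCRC2. In complex II no member was called, at 0.12 ± 0.07 for SDHA (adjusted p = 0.456), -0.04 ± 0.07 for SDHC (adjusted p = 0.878) and 0.09 ± 0.08 for SDHD (adjusted p = 0.675). SDHA was at 12.34, 12.40 and 12.40 in siRNA arrays, against 12.23, 12.20 and 12.35 in controls. Complex IV values stayed between -0.06 (COX7A2L) and 0.10 (COX5A), the narrowest range among complexes I, III and IV.

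Of the 52 members, 12 had OCI-Ly7 siRNA and control arrays that did not overlap, all with the siRNA arrays above, which is 23.1% beside 22.9% of all genes. The 22.9% holds both directions. All genes were not counted by direction, so the direction of the 12 has no background here. Medians over members per array were 0.08, 0.06 and 0.04 in siRNA arrays, against -0.03, -0.01 and 0.03 in controls, each relative to the mean of the controls. Those of complex III were 0.11, 0.10 and 0.10 in siRNA arrays, against -0.05, 0.01 and 0.03 in controls. The siRNA arrays lay above the controls in both, in the OCI-Ly7 line. Medians over all genes tested separated the same arrays too, with smaller values. They were 0.0259, 0.0129 and 0.0093 in siRNA arrays, against -0.0053, 0.0045 and 0.0055 in controls. In Pfeiffer the medians over members were -0.02, -0.04 and 0.00 in siRNA arrays, against -0.02, -0.03 and 0.04 in controls, and the groups overlapped.

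**Figure D2:**
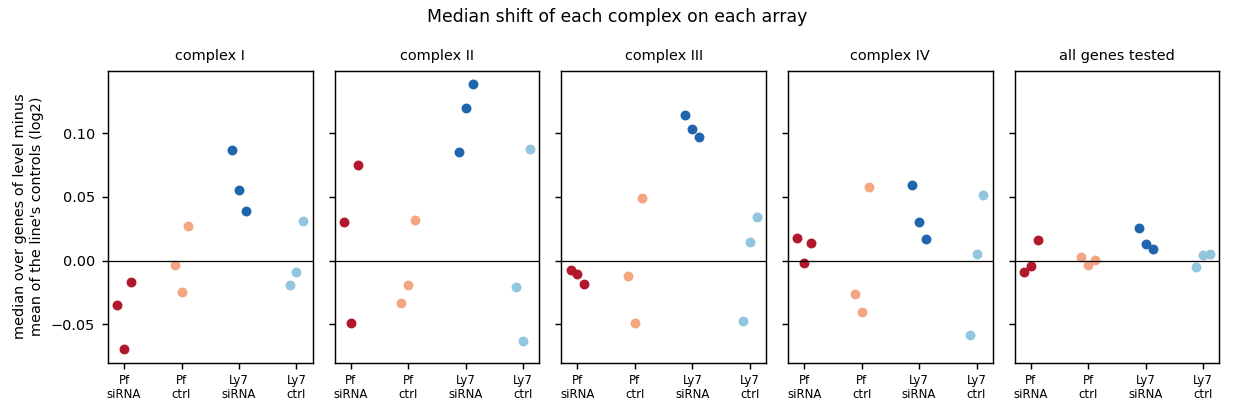
Median over the genes of each complex, and over all genes tested, of the level minus the mean of the same line's controls, on each of the 12 arrays (Pf, Pfeiffer; Ly7, OCI-Ly7; ctrl, control siRNA). The OCI-Ly7 siRNA points of complex III lie at 0.10 to 0.11, above controls at -0.05 to 0.03. Those of all genes tested lie at 0.0093 to 0.0259, above controls at -0.0053 to 0.0055.

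The lines were then compared in their response. The change in Pfeiffer minus the change in OCI-Ly7 was below 0 for 38 of 52 members, with a median of -0.10, against -0.02 over all genes. It was below 0 for 5185 of all 9888 genes, and for 2675 of the brightest 4944, whose median was -0.02. For 4 members this difference passed the test, all negative: NDUFV3 (-0.55 ± 0.12, adjusted p = 0.00892), NDUFB2 (-0.29 ± 0.08, adjusted p = 0.029), NDUFB11 (-0.25 ± 0.07, adjusted p = 0.0473) and COX5B (-0.21 ± 0.06, adjusted p = 0.0493). They are 7.7% of members, beside 5.06% of all genes called lower, and 0 members were higher, beside 3.74% of all genes. Of the brightest 4944 genes 8.2% were called lower and 5.6% higher. NDUFV3 had the most negative change of complex I in Pfeiffer and the most positive in OCI-Ly7. It was at 11.77, 11.82 and 11.70 in Pfeiffer siRNA arrays, against 11.89, 11.87 and 12.17 in controls (-0.21 ± 0.08, adjusted p = 0.102), and its OCI-Ly7 values are above.

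NDUFB2 and NDUFB11 belong to the membrane arm of complex I. NDUFB2 was at 13.04, 12.94 and 13.09 in Pfeiffer siRNA arrays, against 13.13, 13.07 and 13.18 in controls, and at 12.04, 12.03 and 11.94 in OCI-Ly7 siRNA arrays, against 11.77, 11.84 and 11.85 in controls. The OCI-Ly7 groups did not overlap and the Pfeiffer groups did. A second probe set of NDUFB2 gave -0.37 for the difference and was not called in the limma fit of 17659 probe sets (adjusted p = 0.0592). NDUFB11 was at 13.08, 13.12 and 13.22 in Pfeiffer siRNA arrays, against 13.24, 13.22 and 13.27 in controls, and at 12.74, 12.66 and 12.76 in OCI-Ly7 siRNA arrays, against 12.55, 12.53 and 12.63 in controls. Its OCI-Ly7 groups did not overlap either. COX5B in OCI-Ly7 was at 13.43, 13.34 and 13.39 in siRNA arrays, against 13.29, 13.33 and 13.32 in controls (0.07 ± 0.04, adjusted p = 0.457). Its change within each line missed the threshold. In the same limma fit of probe sets, 2 further bright ones of COX5B gave -0.21 (adjusted p = 0.0719) and -0.27 (adjusted p = 0.0333) for the difference. The dimmest gave 0.04 (adjusted p = 0.953).

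NDUFV3 kept its difference call when any 1 array was left out, although its second probe set gave 0.33. NDUFB2 lost the call in 6 of the 12 fits without 1 array, NDUFB11 in 9 and COX5B in 11. The 4 calls became 1 to 4: 1 without OCI-Ly7 control replicate 1, OCI-Ly7 siRNA replicate 1, Pfeiffer control replicate 1 or 3 or Pfeiffer siRNA replicate 2, and 2 without OCI-Ly7 siRNA replicate 3, Pfeiffer control replicate 2 or Pfeiffer siRNA replicate 1.

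**Figure D3:**
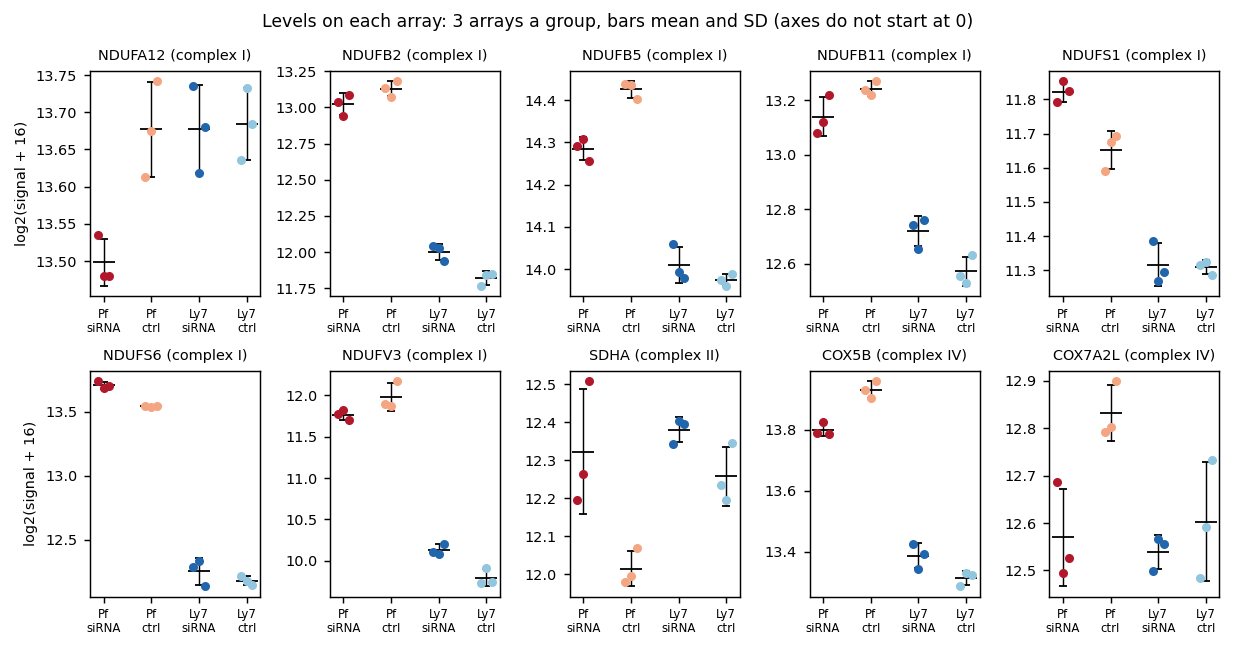
Levels on each array, as log2(signal + 16), of the 10 members called in a line or for the difference between lines (Pf, Pfeiffer; Ly7, OCI-Ly7; ctrl, control siRNA; 3 arrays a group). Bars give the mean and SD, each panel has its own axis, and axes do not start at 0. For NDUFV3 the siRNA arrays lie below the controls in Pfeiffer and above them in OCI-Ly7.

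Several complex IV subunits exist as a common form and a form known from particular tissues. The common forms COX4I1, COX6A1, COX6B1, COX7A2, COX7B and COX8A were all tested and none was called in either line. COX4I1, for example, was at 15.21, 15.14 and 15.24 in Pfeiffer siRNA arrays, against 15.10, 15.08 and 15.20 in controls (0.07 ± 0.06, adjusted p = 0.437), and changed by 0.03 ± 0.06 in OCI-Ly7 (adjusted p = 0.845). COX6A1 (0.01 and 0.05 in Pfeiffer and OCI-Ly7), COX6B1 (0.00 and 0.04), COX7B (-0.04 and 0.02) and COX8A (0.03 and -0.01) had still smaller values in Pfeiffer. The 7 members too dim to be tested were the tissue forms COX4I2, COX6A2, COX6B2, COX7A1, COX7B2 and COX8C and the pseudogene COX6A1P1, whose mean signals are given next without a test.

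COX6A2 and COX7A1 are the heart and skeletal muscle forms. COX6A2 had mean signals of 107.3 in Pfeiffer siRNA cells and 89.0 in controls, and of 113.7 in OCI-Ly7 siRNA cells and 110.9 in controls. COX7A1 had 15.8 in Pfeiffer siRNA cells and 7.2 in controls, and 6.2 in OCI-Ly7 siRNA cells and 12.8 in controls. COX4I2, known for expression in lung, had 220.6 in Pfeiffer siRNA cells and 182.0 in controls, and 165.6 in OCI-Ly7 siRNA cells and 257.2 in controls. Groups of arrays overlapped within each line for these 3 genes.

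COX6B2, COX7B2 and COX8C are known from testis. COX8C stood at 7.45, 7.25 and 6.89 in Pfeiffer siRNA arrays, against 6.76, 6.80 and 6.74 in controls, and at 4.19, 4.20 and 5.01 in OCI-Ly7 siRNA arrays, against 4.61, 4.80 and 4.36 in controls. Its siRNA arrays were thus above the controls in Pfeiffer, and every Pfeiffer array was above every OCI-Ly7 array, at signals below the lowest one tested (223.9). COX6B2 had 64.5 in Pfeiffer siRNA cells and 84.2 in controls, and 69.6 in OCI-Ly7 siRNA cells and 51.1 in controls. All its siRNA arrays lay below all controls in Pfeiffer, opposite to COX8C. COX7B2 had mean signals of 44.2 in Pfeiffer siRNA cells and 38.2 in controls, and of 28.6 in OCI-Ly7 siRNA cells and 35.3 in controls. COX6A1P1 had 8.5 in Pfeiffer siRNA cells and 23.5 in controls, and 21.3 in OCI-Ly7 siRNA cells and 48.2 in controls. All its siRNA arrays lay below all controls in OCI-Ly7. MAS5 signals this low are noisy, and no change is read from them.

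The lines were also compared through their transfected controls, and these differences were larger than the changes after BCL6 siRNA. In Pfeiffer controls 42 of 52 were higher than in OCI-Ly7 controls and 1, SDHA, was lower, with a median difference of 0.54 on the log2 scale (a ratio of 1.45), against 0.07 over all genes and 0.09 over the brightest 4944. The 42 are 80.8% of members, beside 42.5% of all genes called higher, and the 1 is 1.9%, beside 37.1% called lower. Of the brightest 4944 genes 46.6% were called higher and 38.3% lower. By complex, 25 of 32 members of complex I were higher (median 0.63), all 6 of complex III (median 0.54), 9 of 11 of complex IV (median 0.46) and 2 of 3 of complex II (median 0.20). At 2-fold or more, 9 members were higher and 0 lower.

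NDUFV3 had the largest difference, with 11.89, 11.87 and 12.17 in Pfeiffer controls, against 9.73, 9.91 and 9.74 in OCI-Ly7 controls (2.18 ± 0.08, adjusted p = 2.68e-12). Its second probe set gave only 0.20 (adjusted p = 0.363). NDUFA2, an accessory subunit of the NADH-oxidising arm, was at 13.79, 13.79 and 13.87 in Pfeiffer controls, against 12.34, 12.31 and 12.32 in OCI-Ly7 controls (1.49 ± 0.06, adjusted p = 4.6e-12). When the mean of all its probe sets was taken, 2 of them too dim to be tested, the difference was 0.27 (adjusted p = 0.263). NDUFA3 was at 12.79, 12.83 and 12.97, against 11.46, 11.32 and 11.42 in OCI-Ly7 controls (1.46 ± 0.07, adjusted p = 4.79e-11).

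NDUFS6 was at 13.54, 13.53 and 13.54 in Pfeiffer controls, against 12.22, 12.18 and 12.15 in OCI-Ly7 controls (1.36 ± 0.05, adjusted p = 3.04e-12). NDUFB9, a membrane arm subunit of the LYR protein family, was at 14.26, 14.18 and 14.31, against 12.91, 12.86 and 12.96 in OCI-Ly7 controls (1.34 ± 0.05, adjusted p = 4.3e-12). Each of these 5 genes separated the lines completely, but they were named for having the largest differences, so the separation adds no support. NDUFA6 (1.32), NDUFA8 (1.32), NDUFB2 (1.31) and, in complex III, UQCRQ (1.02) were the other members at 2-fold or more.

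In complex IV the largest differences were those of COX7B (0.99 ± 0.05) and COX5A (0.95 ± 0.07), which carries part of the matrix face of the enzyme. COX5A was at 15.02, 15.16 and 15.12 in Pfeiffer controls, against 14.12, 14.20 and 14.13 in OCI-Ly7 controls. COX7A2 (0.05) and COX8A (0.07) were not called. SDHA was at 11.98, 11.996 and 12.07 in Pfeiffer controls, against 12.23, 12.20 and 12.35 in OCI-Ly7 controls, lower by a value of -0.24 ± 0.07 (adjusted p = 0.00584). SDHA thus went against SDHD, which was higher in Pfeiffer (0.59 ± 0.08, adjusted p = 7.13e-06), and SDHC, also higher (0.20 ± 0.07, adjusted p = 0.0224). Of complex I, 7 members were not called: NDUFA7, NDUFA9, NDUFA12, NDUFB3, NDUFB4, NDUFB6 and NDUFB7, between -0.09 and 0.23. Quantile normalization moved the median of all genes to 0.10 and that of the members to 0.44, and called 40 members higher and 4 lower.

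**Figure D4:**
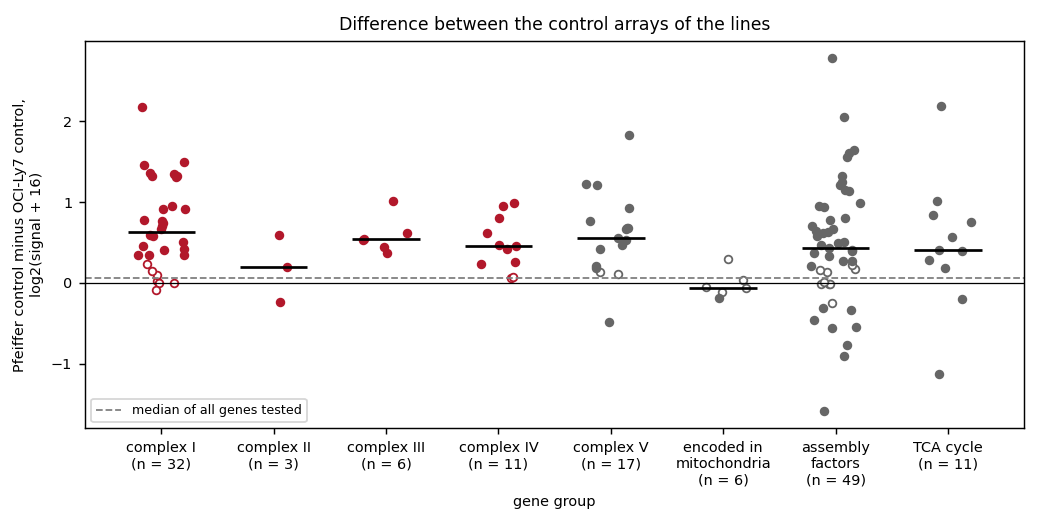
Pfeiffer control minus OCI-Ly7 control, on the log2(signal + 16) scale, for the tested genes of each complex (red) and of related groups (grey). Each point is a gene, filled where adjusted p is under 0.05, short lines are group medians and the dashed line is the median of all 9888 genes. Complexes I, III and IV have medians of 0.63, 0.54 and 0.46, and the mitochondrially encoded subunits one of -0.06.

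Other genes of the pathway were compared in the same way. Of the ATP synthase genes, 14 of 17 tested were higher and 1 lower in Pfeiffer controls (median 0.56). NDUFAB1, the mitochondrial acyl carrier protein and a complex I subunit outside the symbol rule, was higher by 1.16 ± 0.07, and CYC1, the cytochrome c1 of complex III, by 1.01 ± 0.05. All 6 electron carriers and dehydrogenases that feed the chain were higher (median 0.77), among them cytochrome c, CYCS, by 0.67 ± 0.05. DHODH and GPD2 of these 6 were tested through their Pfeiffer level alone. The subunits encoded in the mitochondrial genome did not share this: of 6 tested, 0 were higher and 1, ND4, was lower (-0.18 ± 0.07, adjusted p = 0.0283), with a median of -0.06. A test of that contrast between nuclear and mitochondrial subunits was not made. COX1, the catalytic core of complex IV, was at 15.72, 15.75 and 15.92 in Pfeiffer controls, against 15.73, 15.89 and 15.97 in OCI-Ly7 controls.

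Assembly factors, which build the complexes without staying in them, were higher for 32 of 49 (65.3%) and lower for 8 (16.3%) at baseline (median 0.43), beside 42.5% and 37.1% of all genes. Of the 11 enzymes of the tricarboxylic acid cycle 9 were higher (81.8%) and 2 lower (18.2%), with a median of 0.41. Among regulators of mitochondrial gene expression 7 of 18 were higher (38.9%) and 6 lower (33.3%), shares near those of all genes (median 0.06). PPARGC1B, a coactivator of NRF1 and of oestrogen-related receptors, was at 8.87, 9.29 and 8.96 in Pfeiffer controls, against 6.17, 6.68 and 6.93 in OCI-Ly7 controls. It was tested through its Pfeiffer level alone, and its mean signal of 83.0 in OCI-Ly7 controls lies under the lowest one tested, so no size is read from the difference. NRF1 was lower in Pfeiffer controls (-0.65 ± 0.13, adjusted p = 0.000207), and so was MYC (-0.64 ± 0.09, adjusted p = 8.78e-06). TFAM, which packages and transcribes mitochondrial DNA, differed by -0.16 ± 0.08 (adjusted p = 0.0851). PPARGC1B, NRF1, MYC, TFAM, NDUFAB1, CYC1, CYCS, COX1, UQCRC1 and UQCRC2 were picked for description after their values were seen.

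After BCL6 siRNA few genes of these lists were called. Complex V, the mitochondrially encoded subunits, the electron carriers and the regulators had 0 calls in either line by limma. An unadjusted p under 0.05 was found for 2879 of all 9888 genes in Pfeiffer and 1532 in OCI-Ly7. At that level the 17 tested genes of complex V had 2 in Pfeiffer and 5 in OCI-Ly7. The 6 mitochondrially encoded subunits had 1 and 1, the 6 carriers 0 and 1, and the 18 regulators 4 and 1. Of 49 assembly factors 4 rose (8.2%, beside 7.9% of all genes) and 6 fell (12.2%, beside 8.31%) in Pfeiffer, and 0 were called in OCI-Ly7, where 8 had an unadjusted p under 0.05. COA8, a complex IV assembly factor, was at 10.28, 10.63 and 10.40 in Pfeiffer siRNA arrays, against 10.00, 10.12 and 9.98 in controls (0.40 ± 0.09, adjusted p = 0.00768). LYRM7, which helps insert the iron-sulphur protein into complex III, was at 11.63, 11.55 and 11.45, against 11.94, 12.01 and 11.86 in controls (-0.39 ± 0.06, adjusted p = 0.000418). Both kept their calls when any 1 array was left out. Of 11 cycle enzymes 2 rose in Pfeiffer, among them malate dehydrogenase, MDH2 (0.19 ± 0.05, adjusted p = 0.0227), whose value turned to -0.09 with the mean of all its probe sets and to -0.36 without probe sets that can match other transcripts. Its call was also lost without siRNA replicate 3 (adjusted p = 0.0749) or control replicate 2 (adjusted p = 0.0994). In OCI-Ly7 0 cycle enzymes were called, and 1 had an unadjusted p under 0.05.

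Besides the brightest, 29 further probe sets of 18 member genes were bright enough to be tested. None was called after BCL6 siRNA in Pfeiffer or OCI-Ly7 when 17659 probe sets were tested together by limma. Their change had the same sign as that of the gene's brightest probe set for 20 in Pfeiffer and 16 in OCI-Ly7. At baseline the sign agreed for 26 of 29, with 20 called higher and 2 lower in Pfeiffer controls and a median of 0.59. The 2 called lower were a second probe set of NDUFB1 (-0.82) and the dimmest of NDUFB8 (-0.71), both far dimmer than the first probe set of the same gene, which gave 0.58 and 0.35. In this limma fit the brightest probe sets of NDUFS1 (adjusted p = 0.0514) and NDUFS6 (0.0508) also lost their Pfeiffer calls. NDUFV3 lost its OCI-Ly7 call (0.0553), and COX5B (0.0565) and NDUFB11 (0.0541) those for the difference. SDHA, COX7A2L, NDUFA12 and NDUFB5 kept their Pfeiffer calls, and NDUFV3 and NDUFB2 those for the difference.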

How the data were processed

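Total RNA of 12 samples, in 4 groups of 3, was hybridised to Affymetrix U133 Plus 2.0 arrays. The authors deposited MAS5 signal values on the log2 scale, made with affy per the submitters' processing notes, with no version given in the sources used here. The 2% trimmed mean signal was 500.0 on every array, as MAS5 scaling gives. Of 54675 probe sets 41091 name 1 gene, 1801 several, 11721 none and 62 are controls, by a platform annotation of 2016.

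Values were turned back to signals and tested as log2(signal + 16), so fold changes of dim genes are understated. Each of 19775 genes was read by its brightest probe set with 1 symbol, and the 9888 brightest by the higher of the line means were tested, from a signal of 223.9 upward. One model with 4 group means was fitted over all 12 arrays with limma 3.58.1 in R 4.3.3 (lmFit, eBayes with trend, two-sided, 8 residual degrees of freedom), and p-values were adjusted by Benjamini-Hochberg over the 9888 genes at a threshold of 0.05. Tables and figures used Python 3.11.15, pandas 2.3.3 and matplotlib 3.10.9. The fit was tested on simulated data. No detection calls were used. Depth does not apply to arrays, and the 3 arrays per group limit the precision.

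The members and gene lists were chosen with earlier results of these data known. Named genes were up to 8 members called each way per line, the 2 members with the lowest p per complex and line, up to 5 called each way for the line difference and the baseline, SDH subunits, isoforms, untested members, BCL6 and, per further list, the called gene with the lowest p each way. Tried beside this were other filters, quantile normalization, a pseudocount of 1 or 64, other probe set choices, other limma settings, a replicate block, a 2-fold minimum and leaving out each array. No pairing of arrays by replicate number is stated. Deviations of same-numbered siRNA and control arrays correlated at -0.08 to 0.083, which neither shows nor excludes a pairing.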

Additional observations from a re-analysis of the deposited data

Results flagged for a closer look

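The change after BCL6 siRNA differed between the lines for 4 respiratory chain members and for the targeted gene, each by limma's contrast of the difference, Pfeiffer minus OCI-Ly7, with 3 arrays a group. The difference was -0.55 for NDUFV3 (adjusted p = 0.00892), -0.29 for NDUFB2 (adjusted p = 0.029), -0.25 for NDUFB11 (adjusted p = 0.0473) and -0.21 for COX5B (adjusted p = 0.0493). With each of the 12 arrays left out in turn, NDUFV3 lost the call 0 times, NDUFB2 6 times, NDUFB11 9 times and COX5B 11 times, and other probe sets of NDUFV3 and COX5B gave 0.33 and 0.04. BCL6 itself had a difference of -0.54 (adjusted p = 0.00496), so the knockdown was deeper in Pfeiffer on this scale. Whether the depth of knockdown bears on the 4 members was not tested.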

How the results depend on the processing

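The 6 members called in Pfeiffer became 10 with quantile normalization, 2 with no filter, without probe sets ending in _x_at or _s_at, without a trend or with a replicate block, and 0 at 2-fold or more, and 1 to 6 with 1 array left out. The 1 call in OCI-Ly7 became 3 with a stricter filter that kept 4944 genes or with array weights, and 0 with no filter, the mean of all probe sets, without _x_at or _s_at sets, without a trend, with a replicate block or at 2-fold or more, and 0 to 3 with 1 array left out. The 4 calls for the line difference became 1 with no filter, without a trend or with a replicate block, 0 with the mean of all probe sets, without _x_at or _s_at sets or at 2-fold or more, and 1 to 4 with 1 array left out. The 43 baseline calls became 32 with the mean of all probe sets (29 higher, 3 lower) and 9 at 2-fold or more. Without _x_at or _s_at sets they became 30 of 40 members tested (28 higher, 2 lower). With 1 array left out they were 42 to 44.

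The median of members in OCI-Ly7, 0.0543, became 0.0141 with quantile normalization and 0.0271 without _x_at or _s_at sets. That of the line difference, -0.095, became -0.0444 with the mean of all probe sets and -0.0503 without _x_at or _s_at sets. The baseline median, 0.5403, became 0.4399 with quantile normalization, 0.5082 with no filter, 0.3488 with the mean of all probe sets and 0.4585 without _x_at or _s_at sets. The Pfeiffer median kept its sign under every alternative run.

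Some signs turned with the choice of probe set. MDH2 in Pfeiffer was -0.0855 with the mean of all probe sets and -0.3616 without _x_at or _s_at sets. Without such sets NDUFV3 was -0.2135 in OCI-Ly7 and 0.3265 for the line difference, and COX5B was 0.0428 for the line difference. A different probe set reads the gene there, by construction. For the other changes the cause was not tested. Over 48 named gene changes and 1139 settings, 968 kept direction and side of the threshold, 112 lost a call, 18 gained one and 5 turned sign with a call in the original. In the remaining 36 an uncalled value turned sign and stayed uncalled.

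Replicate numbers share no stated pairing, and not every array correlated best with its own number. Fits of each line on its own arrays gave no line difference. Signals near background, as for the 7 dim complex IV members, limit what can be read, and leaving out 1 array leaves groups of 2.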
